A study of Mus musculus with 3 samples.

Results

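The genes of 10 pluripotency factors, Pou5f1, Sox2, Nanog, Klf4, Esrrb, Zfp42, Lin28a, Sall4, Prdm14 and Tfap2c, were read in a map of H3K36me3 from mouse germinal vesicle (GV) oocytes. They form a list of names, and no threshold on a measured value entered its rule, although the list was drawn up with earlier results of these data known. Their windows were all valid 2 kb windows that overlap a gene body (GENCODE M21 on GRCm38) or the 10 kb on both sides. This gave 135 body windows and 97 flank windows, 232 of the 1186323 valid windows, for 10 of 21008 protein-coding genes. The question was which of these genes carry the mark of transcription in the egg and which carry H3K27me3 or H3K4me3.

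H3K36me3 had been profiled with an ultra-low input native ChIP-seq protocol, in which unfixed chromatin is cut with a nuclease and pulled down with an antibody. Each of the 3 replicates was a pool of about 280 GV oocytes taken from wildtype C57BL6/Babr mice at 25 days of age, and all replicates form a single group with no treatment. Per the methods of the study, replicate 2 was made with less antibody than replicates 1 and 3. The number of mice behind a pool is not given in the sources used here, so the spread between replicates may be partly technical. In a pool, fewer oocytes with a mark and less of the mark in every oocyte cannot be told apart.

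The network of pluripotency factors keeps cells of the early embryo and embryonic stem cells able to form all lineages. Several of its genes also act in the germ line, and the egg hands transcripts of some of them to the embryo. H3K36me3 is laid down behind the elongating RNA polymerase and builds up toward the end of a transcribed gene. H3K4me3 marks promoters and, in oocytes, also spreads over broad domains outside them, while H3K27me3 is the mark of Polycomb repression.

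All 10 genes had H3K4me3 in the window that holds their annotated start, so the bases before those starts are shown for 4 genes that differ in what lies downstream. Each line holds the 250 bases before a RefSeq start (GRCm38.p6), 5′ to 3′ on the strand of the gene, with every CG in capitals. Pou5f1 (chr17:35505782-35506031, + strand) had H3K36me3 called over its whole body and no H3K27me3 there. Its RefSeq start lies 14 bases downstream of the GENCODE start. Zfp42 (chr8:43307010-43307259, - strand) had both H3K36me3 and H3K27me3 in its body. Nanog (chr6:122707239-122707488, + strand) had H3K27me3 and no H3K36me3, and Klf4 (chr4:55532476-55532725, - strand) had neither in its body.
Pou5f1: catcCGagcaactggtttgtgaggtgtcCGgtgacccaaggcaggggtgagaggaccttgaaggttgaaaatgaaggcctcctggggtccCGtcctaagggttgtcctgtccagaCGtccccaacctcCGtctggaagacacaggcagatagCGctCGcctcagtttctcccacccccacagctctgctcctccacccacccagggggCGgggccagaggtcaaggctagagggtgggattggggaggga
Zfp42: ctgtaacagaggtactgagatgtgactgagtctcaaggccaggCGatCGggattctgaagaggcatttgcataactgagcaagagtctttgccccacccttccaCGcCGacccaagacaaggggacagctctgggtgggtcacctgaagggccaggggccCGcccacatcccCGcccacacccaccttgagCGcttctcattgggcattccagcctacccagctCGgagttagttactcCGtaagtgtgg
Nanog: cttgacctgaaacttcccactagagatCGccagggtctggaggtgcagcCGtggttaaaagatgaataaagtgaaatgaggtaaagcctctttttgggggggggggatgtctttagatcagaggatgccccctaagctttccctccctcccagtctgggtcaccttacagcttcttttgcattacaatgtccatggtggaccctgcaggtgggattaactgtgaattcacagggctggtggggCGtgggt
Klf4: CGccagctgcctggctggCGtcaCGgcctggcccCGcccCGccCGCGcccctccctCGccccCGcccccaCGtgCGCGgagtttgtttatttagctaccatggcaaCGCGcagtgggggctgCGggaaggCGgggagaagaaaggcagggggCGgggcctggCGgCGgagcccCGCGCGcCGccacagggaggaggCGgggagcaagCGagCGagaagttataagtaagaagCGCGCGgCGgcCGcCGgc
These stretches differ widely in CG, which reads the same on both strands. The Klf4 stretch holds 32 CG, more than most, since 5.85% of the 15985 promoters compared hold at least as many. The Nanog stretch holds 3, and 79.2% of promoters hold at least as many. Zfp42 has 9 CG and Pou5f1 has 8, close to each other and below the median of 11 over all promoters. Of the other genes with an entry, Sox2 has 27 CG, Lin28a has 7 and Esrrb has 6. The RefSeq start of Sox2 lies at -410 bases relative to the GENCODE start. Its stretch is thus in the window before the start window, which was also called for H3K4me3. The H3K4me3 call at the start was thus shared by members with as few as 3 and as many as 32 CG in this stretch.

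Levels of H3K36me3 are given as RPKM, the unit named by the authors, averaged over the windows of a gene body. The scale behind the name (per kb or per window) was not settled. All windows have the same length, so this does not touch any ratio. The windows at both ends of a body also hold sequence outside the gene, which weighs more in short genes. With only windows whose midpoint lies in the gene, Sox2 rose from 0.181 to 0.361 RPKM and Klf4 fell from 0.248 to 0.158. The valid windows held 7888140, 2692510 and 3166564 reads in replicates 1, 2 and 3, and a value above 1 takes 8, 3 and 3 reads in a window of these libraries. The 5 oocyte markers Zp3, Gdf9, Bmp15, Kit and Figla all had body means above 1, between 1.84 and 3.73 RPKM, with no H3K27me3 call. Of the 5 markers of granulosa or cumulus cells, 1 was above 1 (Amh, 1.39 ± 0.68 RPKM, SD, n = 3), and the other 4 (Foxl2, Cyp19a1, Fshr, Inha) lay between 0.353 and 0.714 RPKM and all had H3K27me3. What part other cells had in any level below was not tested.

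The members ranged from genes covered by H3K36me3 to genes nearly free of it. Sall4, Pou5f1, Zfp42, Lin28a and Tfap2c had body means above 1 RPKM, from 2.09 down to 1.01. The mark did not cover all of these 5 evenly, with H3K36me3 called in 10 of 10 body windows of Sall4 but in 2 of 6 of Tfap2c. Esrrb was intermediate, and Prdm14, Nanog, Klf4 and Sox2 lay between 0.292 and 0.181 RPKM. The count of 5 in 10 above 1 RPKM was near the background, since 52.4% of all protein-coding genes passed the same threshold. H3K27me3 was called in at least 1 body window of 6 members (Zfp42, Tfap2c, Esrrb, Prdm14, Nanog and Sox2), where the background was 43.9%. At the start window, H3K4me3 was called in 10 of 10 members (background 77.0%), H3K27me3 in 6 of 10 (background 32.5%) and H3K36me3 in 2 of 10, Sall4 and Pou5f1 (background 22.5%). The Sall4 start window had a mean of 1.05 RPKM and was above 1 in replicate 3 only.

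The order of the levels could be told only in part. Among neighbours in the order, the replicate ranges of Zfp42 and Lin28a did not overlap, and neither did those of Esrrb and Prdm14. The other 7 neighbouring pairs overlapped. Prdm14, Nanog, Klf4 and Sox2 overlapped with each other in every pair, whereas Sall4, which is not next to Zfp42 in the order, was above it in every replicate. Between replicates, Pearson's r of the 10 body means was 0.937 (replicates 1 and 2), 0.891 (1 and 3) and 0.940 (2 and 3). Over the 232 single windows it was 0.620, 0.745 and 0.535. The lower 2 of these window values involve replicate 2, which had less antibody and fewer reads than the others, and the part of either was not tested. Over the body means the lowest value was that of replicates 1 and 3. These correlations run across genes or windows of the same libraries and describe resemblance only.

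**Figure D1:**
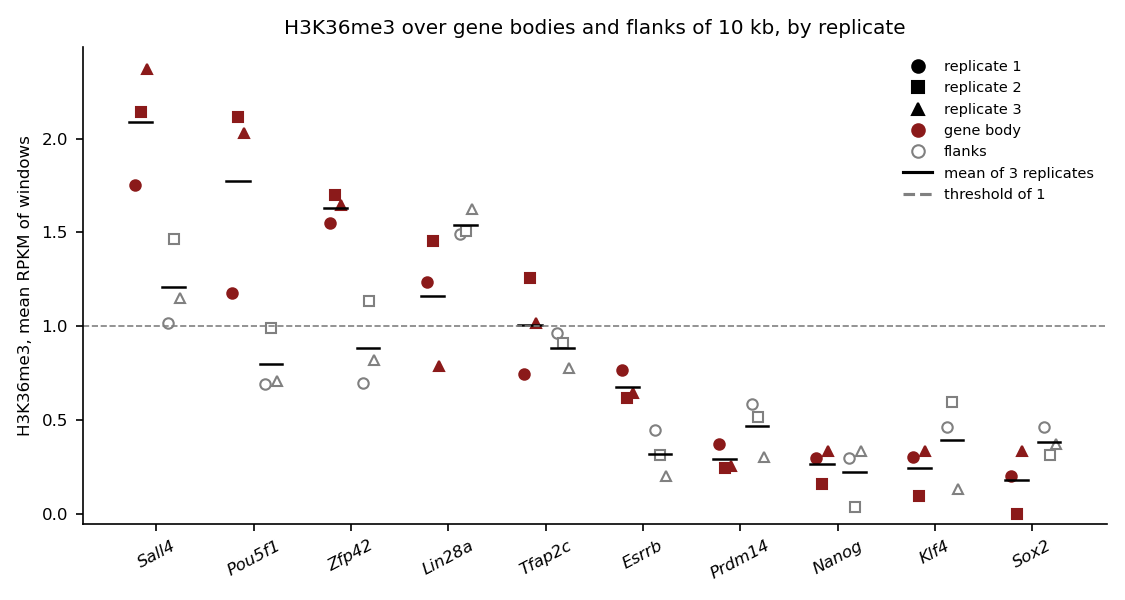
H3K36me3 (mean RPKM of windows, vertical axis) in the gene body (filled) and in the 10 kb on both sides (open) of each of the 10 genes, with a symbol for each of the 3 replicates, short lines for their means and a dashed line at 1 RPKM. Sall4, Pou5f1 and Zfp42 lie above 1 in every replicate, and Prdm14, Nanog, Klf4 and Sox2 lie below 0.5.

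Each body was also set against its own flanks within each replicate, which asks whether the level belongs to the gene or to its surroundings. The difference log2(body + 0.1) minus log2(flank + 0.1) was tested with limma over 20713 protein-coding genes with Benjamini-Hochberg adjustment, and a fold given below is on that scale, which understates changes at low levels. The body was higher in 3 of 10 members, Pou5f1, Zfp42 and Sall4, against a background of 29.2% of all genes tested. No member was lower at an adjusted p under 0.05 with limma (background 9.11%), and at an unadjusted p under 0.05 no member was lower either. Flanks often hold other genes, so this comparison depends on the neighbours, which are given with each gene.

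Pou5f1 (Oct4), the POU-domain factor at the centre of the network, had H3K36me3 called over its whole body. The gene (ENSMUSG00000024406.16) lies at chr17:35506018-35510772 on the + strand. Its body level was 1.18, 2.11 and 2.03 RPKM in replicates 1, 2 and 3, a mean of 1.77 ± 0.52 (SD, n = 3) from 60 reads in 3 windows. Replicate 1 was the lowest and all replicates were above 1. All 3 body windows were called for H3K36me3, 2 of them above 1 in every replicate. The window at the gene end was called at 1.05 RPKM, with replicate 1 at 0.951, and also holds sequence past the gene. H3K4me3 was called in 2 body windows and H3K27me3 in none.

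The level changed at the start of Pou5f1. The 5 upstream windows had 0.370 ± 0.285 RPKM (SD, n = 3), and each was called for H3K4me3 alone. The first body window had 1.22, 1.59 and 1.35 RPKM in replicates 1, 2 and 3, above 1 in each. The window just before it had 0.407, 1.98 and 0 RPKM, so replicate 2 alone was above 1 there. The body was 2.05-fold higher than the flanks (log2 difference 1.03 ± 0.23, SE, n = 3, adjusted p = 0.00745 with limma, higher in 3 of 3 replicates). With flanks of 5 kb the difference was 0.52 and the call was lost (adjusted p = 0.126), and with flank windows free of other genes it was 2.2 (adjusted p = 0.0140). Over the alternatives tried, the adjusted p for Pou5f1 ranged from 0.00443 to 0.126.

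The H3K36me3 at Pou5f1 ran on past the gene. A run here joins neighbouring windows that were each called for H3K36me3, so a run mean above 1 RPKM follows from this rule. The enriched run was 10 kb long (chr17:35506001-35516000), reached 5.23 kb past the gene end and had 2.00 ± 0.51 RPKM (SD, n = 3). It extended into Tcf19, which lies on the opposite strand and had a body mean of 1.73 ± 0.37 RPKM (SD, n = 3). Farther downstream, Cchcr1 had 1.08 ± 0.13 RPKM (SD, n = 3). The antisense transcript Gm19553 overlaps the Pou5f1 body. ChIP reads carry no strand of transcription, so the share of each gene in this run cannot be told apart. The single Pou5f1 window free of other annotated genes had 1.39 RPKM.

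Sox2, the HMG-box partner of Oct4, was at the bottom of the order. The gene (ENSMUSG00000074637.7, chr3:34650405-34652461, + strand) is a single exon covered by 2 windows. Its body level was 0.204, 0 and 0.338 RPKM in replicates 1, 2 and 3, a mean of 0.181 ± 0.170 (SD, n = 3), and the window whose midpoint lies in the gene had 0.361. The windows held 5 reads in all (exact 95% Poisson interval 1.62 to 11.7), where a mean of 1 RPKM would take 25.7. The 0 in replicate 2 allows a level of up to 0.595 RPKM, which is the value of 3 reads there. Such intervals and limits cover counting error only, since reads without molecular identifiers may include PCR copies.

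Both Sox2 body windows were called for H3K4me3 and H3K27me3 together. The 2 marks continued on both sides: 10 of 10 flank windows had H3K27me3 and 8 of 10 had H3K4me3, with no H3K36me3 call. The flank level was 0.384 ± 0.073 RPKM (SD, n = 3). The body was lower than the flanks in 3 of 3 replicates, but the difference of -1.02 ± 0.47 (SE, n = 3) missed the threshold (adjusted p = 0.119 with limma). Sox2 lies inside the long non-coding gene Sox2ot on the same strand, so every Sox2 window also belongs to Sox2ot.

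Nanog, the homeobox factor that supports the ground state of pluripotency, was also nearly free of H3K36me3. The gene (ENSMUSG00000012396.12, chr6:122707489-122714633, + strand) had 0.299, 0.159 and 0.338 RPKM in replicates 1, 2 and 3, a mean of 0.265 ± 0.094 (SD, n = 3). Its 5 windows held 18 reads (exact 95% Poisson interval 10.7 to 28.4), where 64.2 reads would give 1 RPKM. No window of its body or flanks was called for H3K36me3. H3K27me3 was called in 3 body windows and in 4 of the 5 upstream windows, and H3K4me3 in 3 body windows. Only 1 of the body windows with H3K27me3 had its midpoint in the gene.

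Nanog did not stand out from its surroundings. Its flanks had 0.226 ± 0.162 RPKM (SD, n = 3), and the log2 difference of 0.30 ± 0.41 (SE, n = 3) did not pass (adjusted p = 0.608 with limma). In replicates 1 and 3 body and flanks had equal levels, and the only difference was in replicate 2, where the flanks were near 0. Of the 3 core factors, 1 thus had H3K36me3 above 1 RPKM in all replicates, and the other 2 stayed below 0.5 in all of them.

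Klf4, a Krüppel-like zinc finger factor used in reprogramming, had little H3K36me3 and no H3K27me3 in its body. The gene (ENSMUSG00000003032.8, chr4:55527143-55532466, - strand) had 0.306, 0.0991 and 0.338 RPKM in replicates 1, 2 and 3, a mean of 0.248 ± 0.130 (SD, n = 3). This rested on 14 reads in 4 windows (exact 95% Poisson interval 7.65 to 23.5), below the 51.4 that a mean of 1 RPKM would take. H3K4me3 was called in 3 of the 4 body windows. H3K27me3 lay outside, in 7 of 10 flank windows, 5 of them downstream of the gene and 2 upstream. The flanks had 0.397 ± 0.236 RPKM (SD, n = 3), and the difference to the body did not pass (log2 -0.46 ± 0.53, SE, n = 3, adjusted p = 0.537 with limma).

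Prdm14, a PR-domain protein required for primordial germ cells, was covered by H3K4me3. The gene (ENSMUSG00000042414.7, chr1:13113457-13127163, - strand) had 0.373, 0.248 and 0.254 RPKM in replicates 1, 2 and 3, a mean of 0.292 ± 0.071 (SD, n = 3) from 33 reads (exact 95% Poisson interval 22.7 to 46.3, where 102.7 would give 1 RPKM). All 8 body windows had H3K4me3, the 4 nearest to the start also had H3K27me3, and none had H3K36me3. H3K4me3 continued into 9 of the 10 flank windows. The window just upstream of the start window was called for all 3 marks, with 1.22, 0.793 and 1.02 RPKM in replicates 1, 2 and 3, a mean of 1.01 at the threshold. The body was lower than the flanks in 3 of 3 replicates, with 0.468 ± 0.146 RPKM in the flanks (SD, n = 3), and the difference missed the threshold (log2 -0.52 ± 0.36, SE, n = 3, adjusted p = 0.302 with limma).

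**Figure D2:**
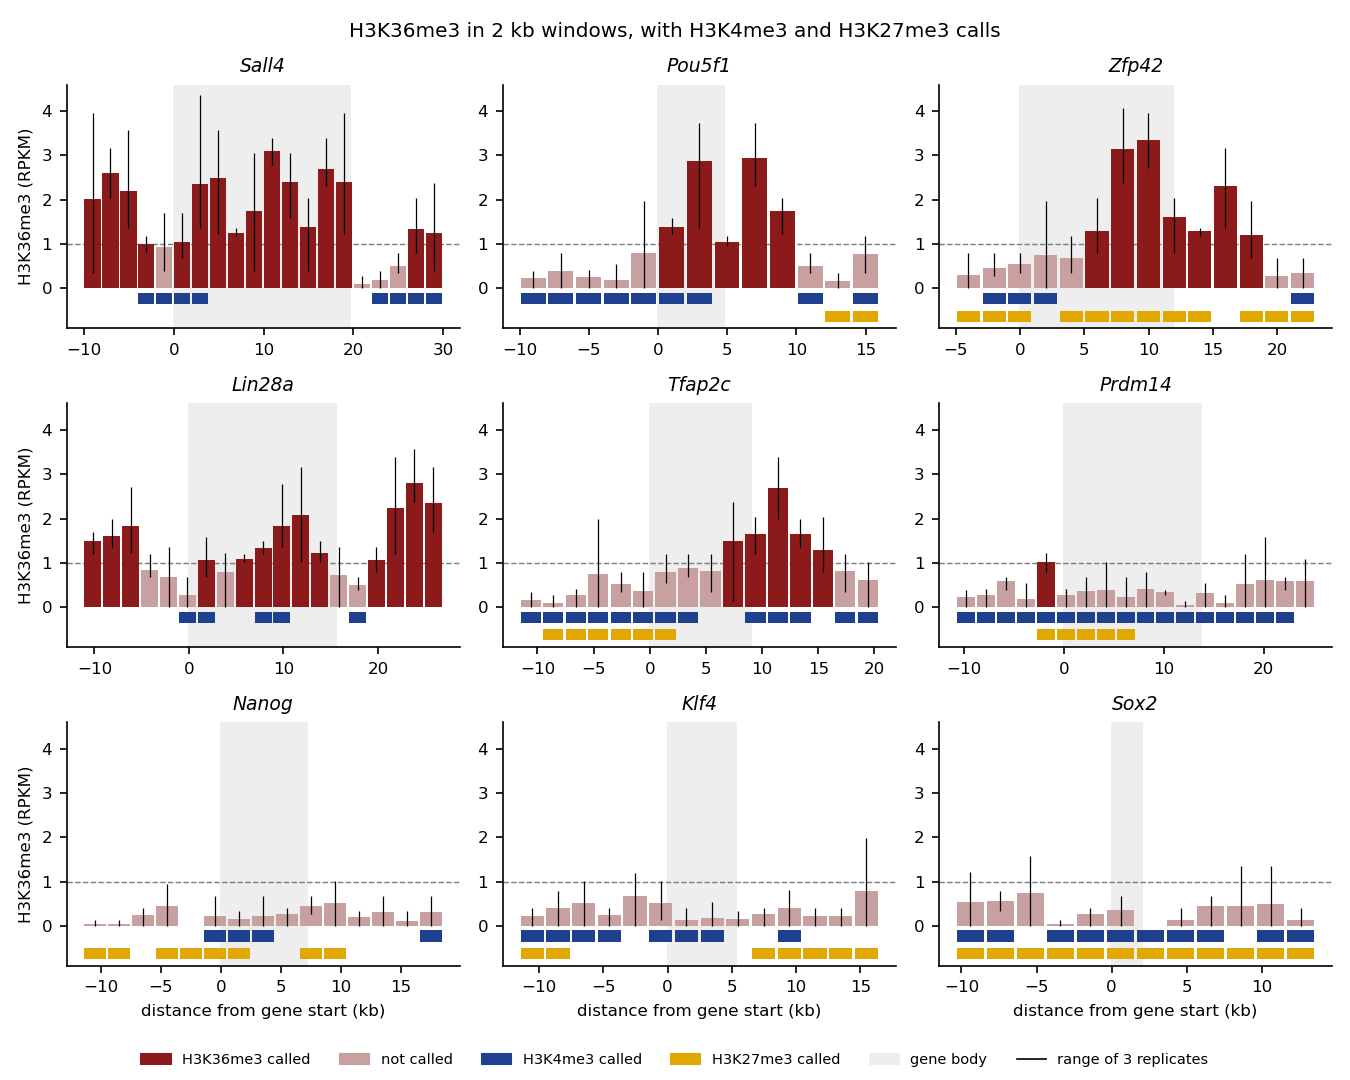
H3K36me3 (RPKM, vertical axis) in each 2 kb window by distance from the gene start (kb, horizontal axis) for 9 genes, with bars for the mean and lines for the range of 3 replicates. Dark bars are windows called for H3K36me3, blue and yellow marks below are H3K4me3 and H3K27me3 calls, and grey shading is the gene body: Sall4 has H3K36me3 over its whole body, Zfp42 has H3K36me3 together with H3K27me3 over the side of its body near the end, and Sox2 has H3K4me3 and H3K27me3 throughout its body.

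Zfp42 (Rex1), a zinc finger protein used as a marker of naive pluripotency, had H3K36me3 and H3K27me3 in the same windows. The gene (ENSMUSG00000051176.6, chr8:43295063-43306980, - strand) had 1.55, 1.70 and 1.64 RPKM in replicates 1, 2 and 3, a mean of 1.63 ± 0.07 (SD, n = 3) from 144 reads in 7 windows. This was the narrowest spread among the 5 members above 1. H3K36me3 was called in 4 body windows, and all 4 were also called for H3K27me3, which covered 6 of the 7. H3K27me3 calls have no replicates and come from other libraries, so a window with both calls does not show both marks in the same oocyte.

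The enrichment at Zfp42 began inside the gene and ran past its end. The first 3 body windows had 0.667 ± 0.578 RPKM (SD, n = 3) and no H3K36me3 call. The run that followed was 14 kb long (chr8:43288001-43302000) and had 1.88, 2.04 and 2.18 RPKM in replicates 1, 2 and 3, a mean of 2.03 ± 0.15 (SD, n = 3). The calls set this split, so the higher level in the run is no separate result. In 4 of the 7 windows of the run every replicate was above 1. The run peaked at 3.36 RPKM in the last but 1 window of the body, reached 7.06 kb past the gene end where no other gene is annotated, and 6 of its 7 windows had H3K27me3. Zfp42 was 1 of 2 members, with Tfap2c, that had a body mean above 1 RPKM and at least 1 H3K27me3 window (background 9.61%).

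The Zfp42 body was 1.79-fold higher than its 7 valid flank windows, which had 0.884 ± 0.224 RPKM (SD, n = 3). The log2 difference was 0.84 ± 0.21 (SE, n = 3, adjusted p = 0.0145 with limma), higher in 3 of 3 replicates. It was lost with flanks of 5 kb (adjusted p = 0.124), without replicate 1 (adjusted p = 0.121) and without replicate 3 (adjusted p = 0.0610), and over all alternatives the adjusted p ranged from 0.00579 to 0.124.

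Tfap2c (AP-2 gamma), a factor of trophoblast and primordial germ cells, was at the threshold. The gene (ENSMUSG00000028640.11, chr2:172549593-172558622, + strand) had 0.747, 1.26 and 1.02 RPKM in replicates 1, 2 and 3, a mean of 1.01 ± 0.25 (SD, n = 3) from 70 reads in 6 windows. The replicates fell on both sides of 1, and without replicate 2 the mean was no longer above it. H3K4me3 was called in 4 body windows, H3K27me3 in the 2 nearest to the start and H3K36me3 in the 2 nearest to the end.

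At Tfap2c the H3K36me3 lay mostly past the annotated end. The body up to the enriched run had 0.719 ± 0.340 RPKM (SD, n = 3) and no H3K36me3 call, a split that the calls set here too. The run (chr2:172556001-172566000) had 1.66, 1.59 and 2.03 RPKM in replicates 1, 2 and 3, a mean of 1.76 ± 0.24 (SD, n = 3). Only 26.2% of its 10 kb lay in the gene body, it ended 7.38 kb past the gene end, and no other gene is annotated there. Upstream, the level was 0.356 ± 0.254 RPKM (SD, n = 3), with H3K4me3 in 5 of 5 windows and H3K27me3 in 4. The difference of body to flanks was small (log2 0.15 ± 0.26, SE, n = 3, adjusted p = 0.70 with limma), and 3 of the 5 downstream windows belong to the run.

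Esrrb, an orphan nuclear receptor and the longest member at 160.5 kb, was split along its length. The gene (ENSMUSG00000021255.17, chr12:86361117-86521628, + strand) had 0.766, 0.617 and 0.648 RPKM in replicates 1, 2 and 3, a mean of 0.677 ± 0.079 (SD, n = 3) over 81 windows and 738 reads, with a median window of 0.404. H3K27me3 was called in 58 of these windows, H3K4me3 in 46 and H3K36me3 in 15. The average hides a change of marks inside the gene, which was noticed in the values and is given as a description.

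From the start of Esrrb up to the last H3K27me3 window, over 118 kb, 58 of 59 windows had H3K27me3 and 1 had H3K36me3. The level there was 0.483, 0.396 and 0.264 RPKM in replicates 1, 2 and 3, a mean of 0.381 ± 0.111 (SD, n = 3). The remaining 44 kb had no H3K27me3, and 14 of its 22 windows had H3K36me3. There the level was 1.52, 1.21 and 1.68 RPKM, a mean of 1.47 ± 0.24 (SD, n = 3), so every replicate was above 1 on this side and below 0.5 on the other.

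The longest run in Esrrb was at the gene's end (chr12:86504001-86522000). It was 18 kb long, had 2.15 ± 0.32 RPKM (SD, n = 3) and began 142.9 kb from the gene start. Of the 6 annotated transcripts of Esrrb, the one that starts farthest downstream begins 143.3 kb from the gene start, inside the first window of this run. After the last H3K27me3 window, windows called for H3K36me3 already began 116.9 kb from the gene start. A link between that transcript and the mark was not tested. Exons made up 26.4% of the run and 3.77% of the whole gene. Against its flanks of 0.323 ± 0.123 RPKM (SD, n = 3), the whole body was higher in 3 of 3 replicates but missed the threshold (log2 0.91 ± 0.34, SE, n = 3, adjusted p = 0.0639 with limma). It passed with a pseudocount of 0.5 RPKM (adjusted p = 0.0467) and without a variance trend (adjusted p = 0.0384).

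**Figure D3:**
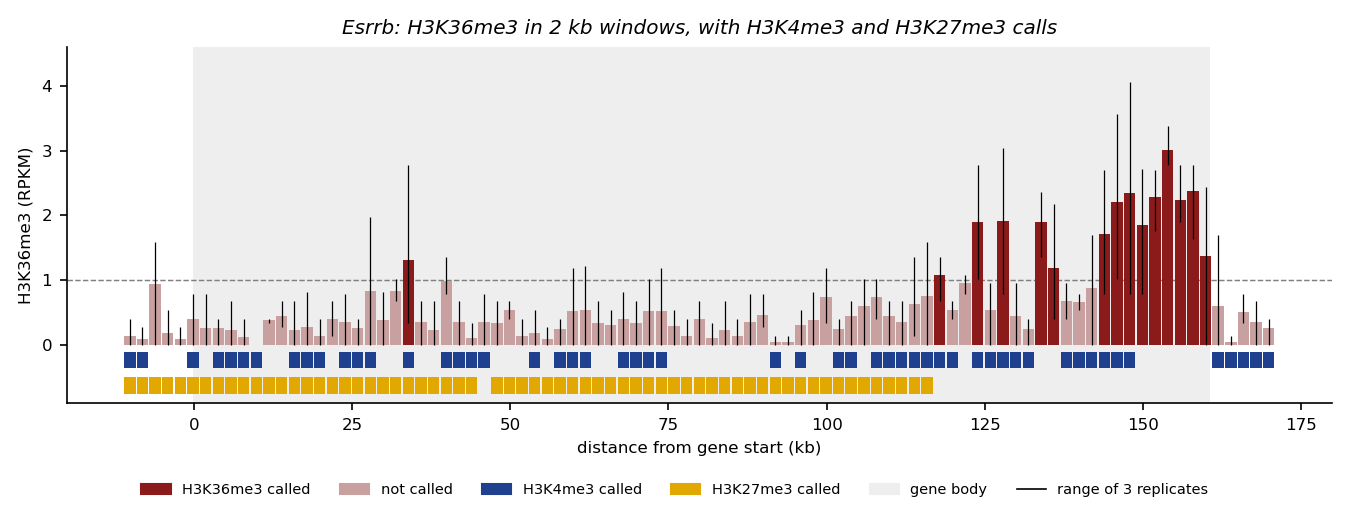
H3K36me3 (RPKM, vertical axis) in each 2 kb window of Esrrb by distance from the gene start (kb, horizontal axis), with bars for the mean and lines for the range of 3 replicates, dark where H3K36me3 was called, blue and yellow marks for H3K4me3 and H3K27me3 calls and grey shading for the gene body. H3K27me3 ends 116.9 kb from the start, and the windows after it average 1.47 RPKM, against 0.381 before.

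Sall4, a zinc finger factor needed in embryonic stem cells and oocytes, had the highest level of the members. The gene (ENSMUSG00000027547.17, chr2:168748332-168767943, - strand) had 1.75, 2.14 and 2.37 RPKM in replicates 1, 2 and 3, a mean of 2.09 ± 0.31 (SD, n = 3) from 253 reads in 10 windows. This was the 80.4th percentile of all protein-coding genes. All 10 body windows were called for H3K36me3, 7 of them above 1 in every replicate, 2 had H3K4me3 and none had H3K27me3.

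The run over Sall4 covered the body and ended close to the gene's end and its start. The first 2 windows past the end had 0.0905 and 0.177 RPKM, against 2.41 in the last body window. The last 2 windows of the downstream flank, on the side of Atp9a (body 2.22 ± 0.11 RPKM, SD, n = 3), had 1.35 and 1.24 RPKM and were called for H3K36me3. The start window was called at 1.05 RPKM, with 0.679, 0.793 and 1.69 RPKM in replicates 1, 2 and 3. On the upstream side, the window next to it had 0.922 RPKM, also above 1 in replicate 3 only, and was not called. The 4 windows beyond that uncalled window were called again and had 1.96 ± 0.90 RPKM (SD, n = 3), the nearest of them 1.01. Levels around the start thus lay close to the threshold, and the end of the run there rests on small differences. The only other annotated gene near the start is the non-coding Gm14261, which overlaps the Sall4 body, and the run over the body holds 27.7% exon sequence.

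The Sall4 body was 1.67-fold higher than the flanks, which had 1.21 ± 0.23 RPKM (SD, n = 3). The log2 difference was 0.74 ± 0.18 (SE, n = 3, adjusted p = 0.0124 with limma), higher in 3 of 3 replicates, and 1.27 with flanks of 5 kb. The call was lost with flank windows free of other genes (adjusted p = 0.105), without replicate 1 (0.0805), without replicate 3 (0.0705) and without a variance trend (0.0533), and over all alternatives the adjusted p ranged from 0.00401 to 0.105.

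Lin28a, an RNA-binding protein that blocks maturation of let-7 microRNAs, was marked but lay in marked surroundings. The gene (ENSMUSG00000050966.9, chr4:134003330-134018841, - strand) had 1.24, 1.45 and 0.790 RPKM in replicates 1, 2 and 3, a mean of 1.16 ± 0.34 (SD, n = 3) from 136 reads in 9 windows. Replicate 3 was below 1 and the other replicates were above. H3K36me3 was called in 6 body windows, H3K4me3 in 4 and H3K27me3 in none. The start window had 0.271 RPKM, and a 10 kb run farther in (chr4:134004001-134014000) had 1.52 ± 0.38 (SD, n = 3).

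The flanks of Lin28a had more H3K36me3 than its body in each replicate, 1.54 ± 0.07 RPKM (SD, n = 3). The downstream side had 1.79 ± 0.07 (SD, n = 3) and runs into Dhdds, whose body had 2.19 ± 0.39 (SD, n = 3). Upstream, 3 windows called for H3K36me3 had 1.65 ± 0.24 RPKM (SD, n = 3). The difference did not pass (log2 -0.42 ± 0.23, SE, n = 3, adjusted p = 0.189 with limma), and its sign turned with flanks of 5 kb, where it was 0.52, and with windows assigned by their midpoint, where it was 0.058. The non-coding Gm13061 overlaps the body on the other strand.

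Along the genes with at least 6 body windows, the windows on the side of the gene end were compared with the same number on the side of the start. The end side was higher in 3 of 3 replicates for Zfp42 (by 2.04 ± 0.87 RPKM, SD, n = 3), Lin28a (0.653 ± 0.372), Tfap2c (0.644 ± 0.419), Sall4 (0.613 ± 0.427) and Esrrb (0.609 ± 0.235). Prdm14, which had no H3K36me3 window in its body, differed by -0.036 ± 0.319 RPKM and was higher in 1 of 3 replicates. An exact permutation test that flips the sign of each replicate's difference (two-sided) returned p = 0.25 for the first 5 genes and p = 0.75 for Prdm14. Since 0.25 is the lowest p that 3 replicates permit, this test cannot pass 0.05. No adjustment over the 6 genes was made, as it could only raise these values. The sides were not compared over all protein-coding genes, so no background share stands beside the 5 of 6 genes.

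The marks were also counted window by window over all members, a description with no test. H3K36me3 was called in 40 of the 135 body windows (29.6%, background 51.1%), H3K4me3 in 76 (56.3%, background 26.2%) and H3K27me3 in 75 (55.6%, background 25.9%). Esrrb holds 81 of the 135 windows and sets much of these shares. Without Esrrb, a count added after the values were seen, H3K36me3 was called in 25 of 54 windows (46.3%), H3K4me3 in 30 (55.6%) and H3K27me3 in 17 (31.5%). The shares of H3K36me3 and H3K27me3 were then near the background, and that of H3K4me3 stayed above it. The background pools windows of genes of every length. The members had a median of 6.5 body windows, against 10 over all protein-coding genes, so start windows, all called for H3K4me3, weigh more among them. The part of gene length was not tested. The 5 genes above 1 RPKM had H3K27me3 in 8 of 35 body windows and H3K4me3 in 14. The 5 genes at or below 1 RPKM had H3K27me3 in 67 of 100 and H3K4me3 in 62. Single genes carry this contrast in H3K27me3: Zfp42 holds 6 of the 8 windows and Esrrb 58 of the 67. Without Zfp42 the first set had H3K27me3 in 2 of 28 windows, and without Esrrb the other set had it in 9 of 19, none of them in Klf4. The marks also went apart over all protein-coding genes. Of the 11016 above 1 RPKM, 2019 had H3K27me3 in the body, against 9228 of all 21008. For the members these counts were 2 of 5 and 6 of 10, so the contrast is not shown to be particular to them. H3K36me3 and H3K27me3 shared 5 body windows (3.70%, background 3.17%), 4 of them in Zfp42 and 1 in Esrrb. Among the 97 flank windows, 55 had H3K4me3 (56.7%, against 28.3% of all valid windows), 40 had H3K27me3 (41.2%, against 30.0%) and 22 had H3K36me3 (22.7%, against 31.8%). All valid windows include those far from genes. No share over the flanks of all protein-coding genes stands beside these values, so they are not shown to be particular to the members.

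**Figure D4:**
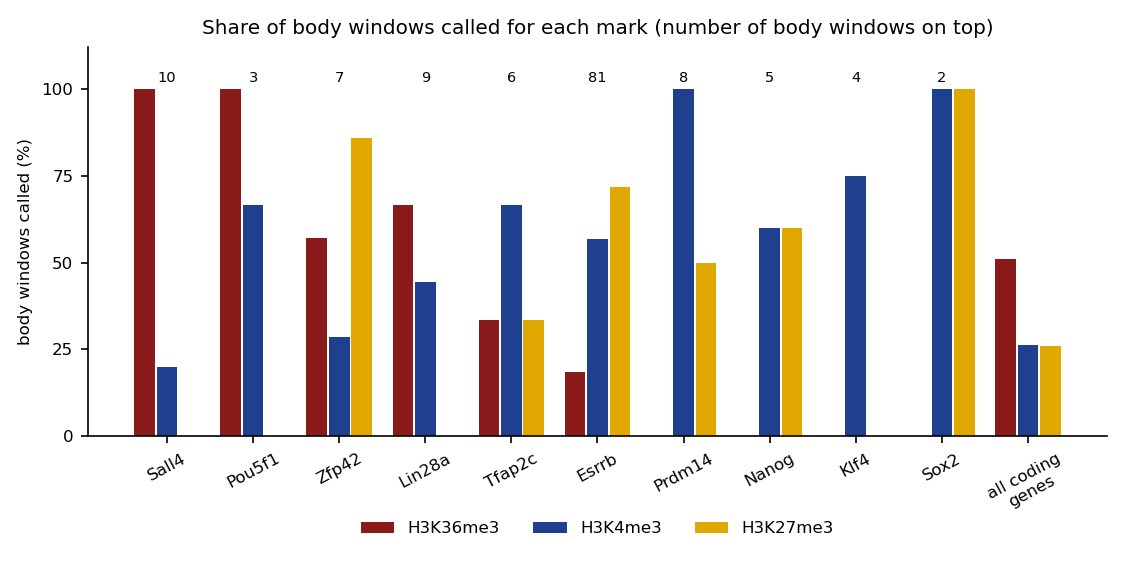
Share of body windows (%, vertical axis) called for H3K36me3 (red), H3K4me3 (blue) and H3K27me3 (yellow) in each of the 10 genes and in all protein-coding genes, with the number of body windows above each gene. Sall4 and Pou5f1 reach 100% for H3K36me3 with no H3K27me3, and Sox2 reaches 100% for both H3K4me3 and H3K27me3 with no H3K36me3.

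A wider list of 32 other genes of the pluripotency network was also mixed. Their median body level was 0.648 RPKM, next to 0.841 for the 10 members and 1.10 for all protein-coding genes. In this list 15 genes were above 1 RPKM (46.9%, background 52.4%) and 19 had H3K27me3 in the body (59.4%, background 43.9%). Against their flanks, 9 bodies were higher (28.1%, background 29.2%) and 5 lower (15.6%, background 9.11%). The highest levels were those of Tcl1, a co-activator of the kinase Akt (2.93 ± 1.06 RPKM, SD, n = 3), Stat3, the effector of LIF signalling (2.76 ± 0.36), and Rif1, a regulator of replication timing (2.57 ± 0.35). All 3 were higher than their flanks (adjusted p = 0.00761, 0.00211 and 0.00120 with limma) and had no H3K27me3.

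At the other end of the network list stood Otx2 (0.223 ± 0.157 RPKM, SD, n = 3), a homeobox factor of the primed state, Myc (0.214 ± 0.289) and the orphan nuclear receptor Nr0b1 (0.106 ± 0.183). H3K27me3 was called in 9 of 9, 3 of 4 and 3 of 3 of their body windows. Myc and Nr0b1 were lower than their flanks (adjusted p = 0.00949 and 0.0321 with limma), and Otx2 was not called (adjusted p = 0.511). Lin28b, the paralogue of Lin28a and named after its values were seen, had nearly the same level (1.12 ± 0.07 RPKM, SD, n = 3) in surroundings of 0.330 RPKM and was called higher than its flanks (log2 1.51 ± 0.30, SE, n = 3, adjusted p = 0.00489 with limma).

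Oocyte transcription factors and lineage regulators lay on either side of the members. Of 10 oocyte factors, 8 were above 1 RPKM (background 52.4%) and the median was 2.11. Their bodies were higher than the flanks in 7 (background 29.2%). None was lower at an adjusted p under 0.05 (background 9.11%) or at an unadjusted p under 0.05 in limma. Nobox (2.93 ± 1.29 RPKM, SD, n = 3), Zfp57, which guards imprints (2.33 ± 0.54), and Gtf2a1l, a germ cell form of a general factor (2.32 ± 0.30), led this list. Taf4b (1.67 ± 0.22), Sohlh1 (0.330 ± 0.173) and Sohlh2 (0.30 ± 0.090) were its lowest. The last 2, factors of early follicles, had H3K27me3 in 3 of 3 and 9 of 11 body windows.

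Of 14 lineage regulators, 3 were above 1 RPKM (background 52.4%) and 13 had H3K27me3 in the body (background 43.9%), with a median of 0.428 RPKM. Their bodies were lower than the flanks in 3 (background 9.11%). None was higher at an adjusted p under 0.05 (background 29.2%) or at an unadjusted p under 0.05 in limma. Gata1, of the erythroid lineage, was the highest (2.35 ± 0.55 RPKM, SD, n = 3) and the only gene of this list without H3K27me3. Gata4 (1.19 ± 0.08) and Eomes (1.01 ± 0.23) followed and had H3K27me3 in 10 of 37 and 4 of 5 body windows. Neurog1 (0.313 ± 0.281), Sox17 (0.302 ± 0.034) and Myod1 (0.136 ± 0.235) were the lowest, with H3K27me3 in all their body windows, as in Sox2. The range of this list, from 0.136 to 2.35 RPKM, holds the levels of all 10 members. Lists and genome were compared by counts and medians, with no test between them.

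**Figure D5:**
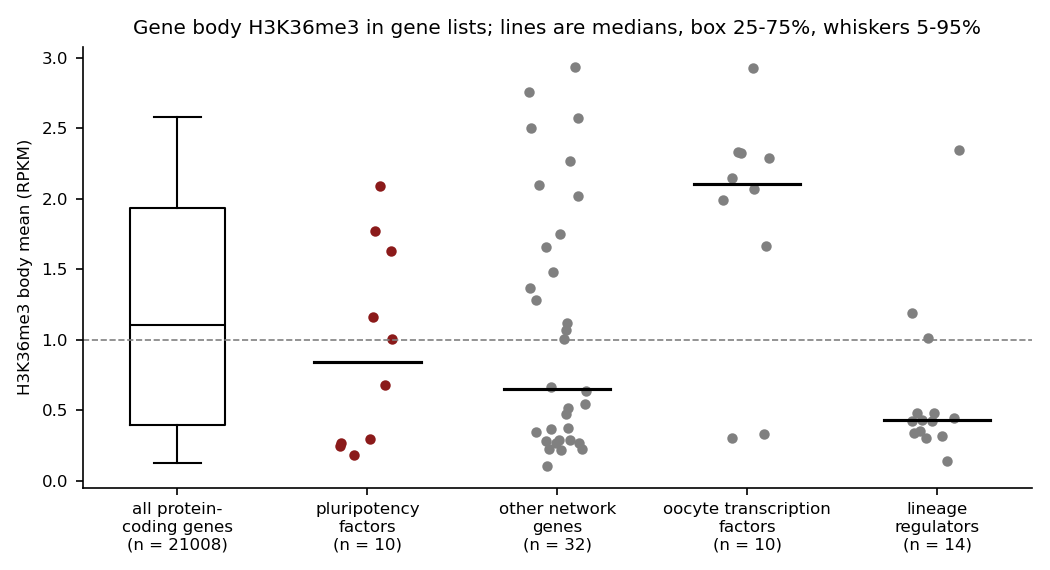
Gene body H3K36me3 (mean RPKM over 3 replicates, vertical axis) for the members (red), the 32 other network genes, 10 oocyte transcription factors and 14 lineage regulators (grey points, with a line at the median), beside all 21008 protein-coding genes (box from 25% to 75%, whiskers from 5% to 95%, line at the median) and a dashed line at 1 RPKM. The medians are 0.841 for the members, 0.648 for the network genes, 2.11 for the oocyte factors, 0.428 for the lineage regulators and 1.10 for all genes.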

How the data were processed

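The deposited data are a pair of tables. The first gives an RPKM value per replicate in each 2 kb window. As described in the study, the authors trimmed reads, mapped them to GRCm38 with Bowtie2 2.2.9 and counted them in SeqMonk, leaving out windows with extreme input signal. Removal of duplicates is not stated. Every value was a whole number of steps of fixed size in its replicate (0.136, 0.396 and 0.338 RPKM per read, 100% whole within a tolerance of 0.01 reads), which gave the read numbers. The second deposited table names the marks the authors called in a window. H3K4me3 and H3K27me3 calls came from earlier libraries without replicate values here. The H3K36me3 call equalled a mean RPKM above 1 in every window (0 differences).

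Body windows overlapped a gene by at least 1 base. With windows assigned by midpoint, 6 members still had H3K27me3 in the body, in 4 windows of Zfp42 and in 1 each of Nanog, Sox2 and Tfap2c. Genes came from GENCODE M21, and 54 gene entries that share a symbol were left out. Body and flank levels (10 kb, at least 5 flank windows) were compared with limma 3.58.1 (R 4.3.3) on log2(RPKM + 0.1) within replicates, with a variance trend and Benjamini-Hochberg adjustment. A count model was not used, since the deposited values are RPKM. The step was also run on simulated data, where body and flanks varied independently and the changed genes differed by more than any member here. That run does not measure error rates in these data. Start and end sides were compared with an exact sign-flip permutation test (scipy 1.17.1). Promoter bases are those of RefSeq on GRCm38.p6, with entries for 7 of the 10 members.

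Named genes were the members, the 3 highest and 3 lowest of each list and protein-coding neighbours. Members and lists were chosen with earlier results of these data known. Alternatives changed replicates, pseudocount, flanks, filter, window assignment, threshold, averaging and variance trend.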

Additional observations from a re-analysis of the deposited data

How the results depend on the processing

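Of 246 values recomputed under other settings, 212 kept their direction and their side of the threshold, moved by less than the spread or, for counts, stayed within 1.5 times the count, 16 moved further, 8 turned direction, 8 were no longer called and 2 became called. The count of 5 members above 1 RPKM was 3 at a threshold of 1.5 RPKM, 1 at 2 RPKM (Sall4) and 3 when every replicate had to pass (Sall4, Pou5f1 and Zfp42), and lay between 4 and 5 when a replicate was left out. The 3 members higher than their flanks became 1 with flanks of 5 kb (Sall4) and between 1 and 3 when a replicate was left out, with Pou5f1 alone called without replicate 1 or without replicate 3. Over all genes, the calls of body against flank (7927) lay between 4766 and 7865 when a replicate was left out, those higher (6040) between 3833 and 5972 and those lower (1887) between 933 and 1893. The genes lower in the body were 842 with flanks of 5 kb and 516 with flank windows free of other genes. Directions turned only among differences that were not called: Nanog was -0.021 with flanks of 5 kb and -0.11 with windows assigned by midpoint, Lin28a was 0.52 and 0.058, Tfap2c was -0.46 and -0.062, Klf4 lay between -1.14 and 0.21 when a replicate was left out (0.21 without replicate 2), and the end side of Prdm14 differed by between -0.203 and 0.115 RPKM (0.115 without replicate 3). The cause of these changes was not tested. Sox2 has no value in windows free of other genes. With only 1 group, replicate numbers pair no samples across groups, and body and flanks were already compared within each replicate.

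Depth limits the low members most: a body level of 1 RPKM corresponds to 25.7 reads in Sox2 and 51.4 in Klf4 over all replicates. The replicate ranges of Prdm14, Nanog, Klf4 and Sox2 overlapped, and differences among them were not tested. The H3K4me3 and H3K27me3 calls have no replicates here and no error can be given for them.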
